A study of Mus musculus with 2 samples.

Results

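Genes of olfactory signal transduction were examined in bulk RNA of newborn mouse cranial suture. The set held 10 genes out of 23930 measured, namely Omp, Cnga2, Cnga4, Cngb1, Gnal, Gng13, Adcy3, Ano2, Stoml3 and Rtp1, and was chosen by gene symbol with the values of both libraries in view. The levels and the differences below therefore describe how the members were chosen and carry no test. Tissue was taken from the coronal, sagittal and lambdoid sutures, the fibrous joints between the skull bones, of wildtype pups at postnatal day 3. The only group consisted of 2 libraries, library 2 and library 1, with the same batch number and no treatment. Whether they came from separate pups or from pools of pups is not given in the labels, so their spread may be partly technical. The labels name suture stem cells as the cell type, while the extraction protocol describes whole tissue and mentions no sort. Library 2 held 15802610 reads and library 1 held 5663344.

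In the olfactory epithelium of the nose, odorants bind receptors on the cilia of olfactory sensory neurons. The receptors activate the G protein G-olf, which switches on adenylyl cyclase 3, and the cyclic AMP made there opens a cyclic nucleotide-gated cation channel. The calcium that enters opens a chloride channel that adds to the depolarisation. Olfactory marker protein fills the mature neurons, and chaperones carry the odorant receptors to the cell surface. These neurons lie in the nasal cavity and are not known as cells of the skull sutures.

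Levels are given as CPM, a read count normalised to library size. The libraries were made with an amplicon panel, in which a short stretch of each gene is amplified, so reads do not grow with gene length. Amplicons differ in efficiency, which makes the ranking of genes less certain than the change in any gene from library to library. Of the 10 members, 9 had reads in each library. Together they summed to 563 CPM (8897 reads) in library 2 and 97.5 CPM (552 reads) in library 1. Adcy3 held 25.7% of this sum in library 2 and 74.8% in library 1, whereas Omp held 44.0% in library 2 and 11.4% in library 1. In library 2, 7 members reached 10 CPM, against 2 members in library 1. In bulk RNA, a larger number of cells of a type and more RNA per cell cannot be told apart.

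Markers of the labelled tissue were present in both libraries. Col1a1, the main collagen chain of bone, stood at 132878 CPM in library 2 and 119187 CPM in library 1, and Runx2, the master factor of osteoblasts, at 256 CPM in library 2 and 123 CPM in library 1. All 8 suture and bone genes measured reached 1 CPM in both libraries.

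Omp, the gene of olfactory marker protein, was the highest member in library 2. It stood at 247 CPM there (3911 reads, exact 95% Poisson interval 240 to 255) and at 11.1 CPM in library 1 (63 reads, interval 8.55 to 14.2). Its mean was 129 CPM ± 167 (SD, n = 2), so the SD exceeded the mean. The ratio of library 2 over library 1 was 22.2, with an exact 95% counting interval from 17.3 to 29.0. Among all targets Omp ranked 468 in library 2 and 8558 in library 1. Such intervals cover counting error of the reads only and not the spread between pups. Omp lies on mm10 chromosome 7 from 98143359 to 98145502 and has 1 exon in the annotation, so its reads cannot be told from those of genomic DNA by splicing. Stoml3, a stomatin-family gene of the neurons' cilia, stood at 30.4 CPM in library 2 (480 reads) and 1.94 CPM in library 1 (11 reads). Its ratio was 15.6 (interval 8.66 to 31.5).

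**Figure D1:**
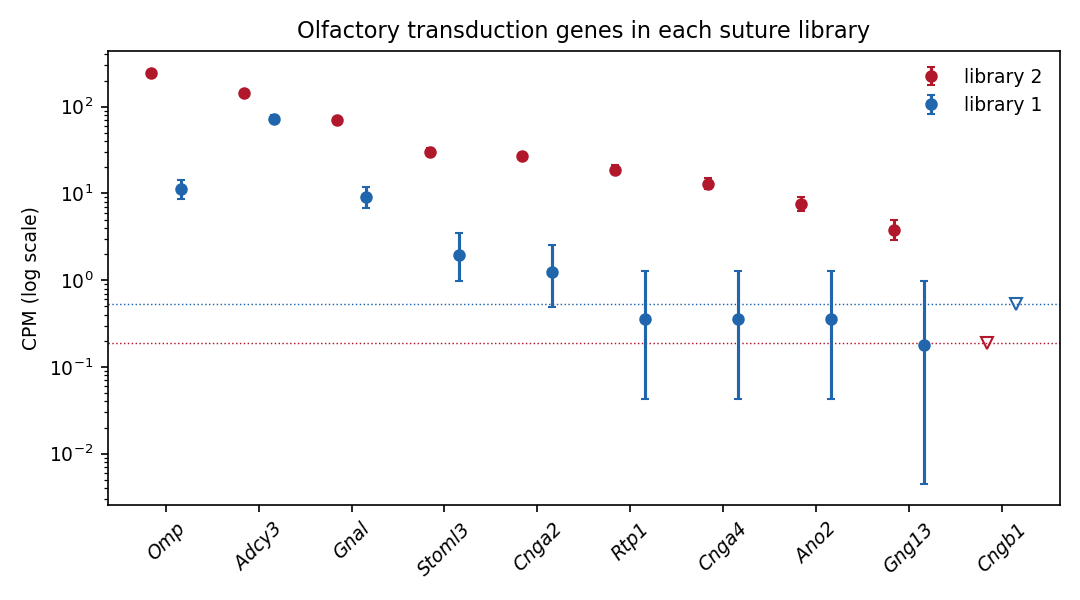
CPM of each member (log scale) in library 2 (red) and library 1 (blue), with exact 95% Poisson intervals of the reads. Dotted lines mark the limit that a count of 0 allows in each library, and open triangles stand for 0 reads. Adcy3 stands at 145 CPM in library 2 and 72.9 CPM in library 1, and Omp at 247 CPM in library 2 and 11.1 CPM in library 1.

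At the receptor step, Rtp1 was measured. It codes for a transport protein that carries odorant receptors to the plasma membrane. Rtp1 stood at 18.8 CPM in library 2 (297 reads) and at 0.353 CPM in library 1 (2 reads), with a ratio of 53.2 (interval 14.6 to 441). The width of that interval comes from the 2 reads of library 1. Rtp2, a relative with a like role that is no member of the set, stood at 22.1 CPM in library 2 and 0.353 CPM in library 1, a ratio of 62.6 (interval 17.2 to 518). Whether reads of these related genes can be exchanged between their amplicons was not tested.

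The G protein subunits differed in level. Gnal codes for the alpha subunit of G-olf and is also used in the striatum of the brain. It stood at 70.5 CPM in library 2 (1114 reads) and 9.01 CPM in library 1 (51 reads), with a ratio of 7.83 (interval 5.91 to 10.6). The ratio of Gnal lay below that of Omp, and the counting intervals of the pair did not overlap. Gng13 codes for a gamma subunit of olfactory neurons and taste cells. It was the lowest member with reads, at 3.80 CPM in library 2 (60 reads) and 0.177 CPM in library 1 (1 read), and its ratio of 21.5 has an interval from 3.71 to 863. Gnb1, the gene of a beta subunit used in many cells, stood at 694 CPM in library 2 and 357 CPM in library 1, a ratio of 1.95 (interval 1.86 to 2.04).

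Adcy3, the gene of the cyclase that makes cyclic AMP in olfactory cilia and that primary cilia of other cells also carry, was the member least different between the libraries. It stood at 145 CPM in library 2 (2285 reads, interval 139 to 151) and 72.9 CPM in library 1 (413 reads, interval 66.1 to 80.3). The ratio was 1.98 (interval 1.78 to 2.21), and the mean was 109 CPM ± 50.7 (SD, n = 2). In library 1 Adcy3 was the highest member, with Omp next at 11.1 CPM. The other adenylyl cyclase genes whose mean reached 1 CPM had ratios from 2.12 (Adcy5) down to 0.595 (Adcy7), so the ratio of Adcy3 lay within their range.

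Of the cation channel, the subunit genes Cnga2, Cnga4 and Cngb1 were measured. Cnga2 codes for the principal subunit, which can form a channel on its own, and Cnga4 and Cngb1 for modulatory subunits. Cnga2 stood at 27.0 CPM in library 2 (426 reads) and 1.24 CPM in library 1 (7 reads), a ratio of 21.8 (interval 10.5 to 54.6). Cnga4 stood at 13.0 CPM in library 2 (205 reads) and 0.353 CPM in library 1 (2 reads), a ratio of 36.8 (interval 10.04 to 305). Both were far higher in library 2, and their intervals overlapped widely.

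Cngb1 had 0 reads in library 2 and 0 reads in library 1, which allows up to 0.190 CPM for library 2 and up to 0.530 CPM for library 1. Its amplicon therefore read nothing at a depth where Cnga4, its partner in the channel, gave 205 reads. The position of the amplicon in the gene was not given in the sources used here. Cngb1 lies on mm10 chromosome 8 from 95239045 to 95306585 on the minus strand and has 6 coding transcripts in the annotation, of which 2 start at least 20000 bases downstream of the first start. The gene is known to give a longer protein in rod photoreceptors and a shorter one in olfactory neurons. The limit of 0 reads holds for the stretch that the amplicon covers and not for every transcript of the gene.

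The channel subunits of rod and cone photoreceptors were near 0. Cnga1 had 1 read in library 2 and 0 in library 1, Cngb3 had 0 in both libraries, and Cnga3 stood at 0.190 CPM in library 2 (3 reads) and 0.883 CPM in library 1 (5 reads). Retina genes were low too, with 1 of 6 at a mean of 1 CPM or more, and Pde6b had 0 reads in both libraries.

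Ano2, the gene of the calcium-activated chloride channel of olfactory cilia, stood at 7.53 CPM in library 2 (119 reads) and 0.353 CPM in library 1 (2 reads). Its ratio was 21.3 (interval 5.77 to 178). Ano1, its relative in secretory epithelia and smooth muscle, stood at 66.1 CPM in library 2 and 26.1 CPM in library 1, a ratio of 2.53 (interval 2.13 to 3.03).

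The bases before the starts of 5 members and of Gfy are shown as a description. Gfy, likewise higher in library 2, codes for a protein that takes part in the traffic of Adcy3 to olfactory cilia in mouse. The members were chosen with the difference between the libraries in view, so nothing about shared regulation is read from it. Each window holds the 250 bases before an annotated start, from RefSeq on build GRCm38.p6, 5′ to 3′ on the gene's strand, in lower case, with matches to CCCNNGGG, the core of the site of Ebf factors, in capitals.
Cnga2: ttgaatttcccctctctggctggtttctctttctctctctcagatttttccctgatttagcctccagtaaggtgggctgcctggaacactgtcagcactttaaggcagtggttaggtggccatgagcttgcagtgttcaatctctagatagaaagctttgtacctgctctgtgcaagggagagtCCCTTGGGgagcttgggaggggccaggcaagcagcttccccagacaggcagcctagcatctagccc
Cnga4: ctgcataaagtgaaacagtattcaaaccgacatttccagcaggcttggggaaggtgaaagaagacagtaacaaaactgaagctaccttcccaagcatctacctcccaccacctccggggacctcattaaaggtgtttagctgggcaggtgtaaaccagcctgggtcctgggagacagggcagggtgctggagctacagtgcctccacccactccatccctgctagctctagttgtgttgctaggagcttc
Ano2: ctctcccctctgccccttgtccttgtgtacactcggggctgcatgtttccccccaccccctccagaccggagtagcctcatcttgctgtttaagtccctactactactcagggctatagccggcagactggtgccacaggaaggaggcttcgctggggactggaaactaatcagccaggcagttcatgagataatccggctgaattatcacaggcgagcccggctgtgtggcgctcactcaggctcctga
Stoml3: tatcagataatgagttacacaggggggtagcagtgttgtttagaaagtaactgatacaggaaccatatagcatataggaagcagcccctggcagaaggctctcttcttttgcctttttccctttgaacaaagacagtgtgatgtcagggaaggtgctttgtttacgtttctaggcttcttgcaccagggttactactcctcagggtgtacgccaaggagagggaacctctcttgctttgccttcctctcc
Gng13: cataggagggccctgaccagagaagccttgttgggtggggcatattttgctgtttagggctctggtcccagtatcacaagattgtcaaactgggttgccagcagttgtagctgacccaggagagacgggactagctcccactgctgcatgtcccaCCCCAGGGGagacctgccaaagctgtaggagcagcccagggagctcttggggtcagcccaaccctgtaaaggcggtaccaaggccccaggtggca
Gfy: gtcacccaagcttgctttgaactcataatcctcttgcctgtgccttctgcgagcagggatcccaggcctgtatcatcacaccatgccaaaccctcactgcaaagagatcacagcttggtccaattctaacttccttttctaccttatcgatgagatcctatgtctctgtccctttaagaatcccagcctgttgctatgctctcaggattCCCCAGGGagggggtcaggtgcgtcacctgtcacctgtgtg
The windows lie at chrX:71991599-71991848 (plus strand), chr7:105404318-105404567 (plus), chr6:125690169-125690418 (plus), chr3:53488457-53488706 (plus), chr17:25716922-25717171 (plus) and chr7:45179598-45179847 (minus).

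Ebf factors are known to bind near many genes of olfactory neurons, which gave them the older name Olf-1. Entries were found for 7 members, with 11 windows in all. The core CCCNNGGG, searched on both strands, stood in 4 of these 11 windows (Ano2 at another start than the one shown, Cnga2, Cngb1 and Gng13) and in 11.8% of 32851 windows of all genes. The capitals in Gng13 are overlapping matches. The window of Gfy, which is no member and is not counted in the 11, also held the core. Motif results of other context genes are not given here. TAATTA, a site of homeodomain factors such as Lhx2, stood in none of the 11 and in 4.84% of all. A match describes letters in a window and not a bound site, and a missing match concerns these windows only.

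Set beside all genes, 8 of the 10 members had a ratio above 2 and the same 8 a ratio above 4. Among all 14097 targets at a mean of 1 CPM or more, 14.2% had a ratio above 2 and 4.73% a ratio above 4. Since the values chose the members, nothing is read from these counts. The 2 members outside were Adcy3 at 1.98 and Cngb1 with no reads. Rtp1, Cnga4, Ano2 and Gng13 were under 1 CPM in library 1 and reached a mean of 1 CPM through library 2, so they had to differ. On the log2(CPM + 1) scale, which understates the change of low genes, the median difference of the 9 members at that mean was 3.37, beside 0.07 for all targets. Among 9192 targets at a mean of 10 CPM or more, ordered by ratio, Omp took place 46, Cnga2 place 47, Stoml3 place 57, Gnal place 90 and Adcy3 place 818.

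**Figure D2:**
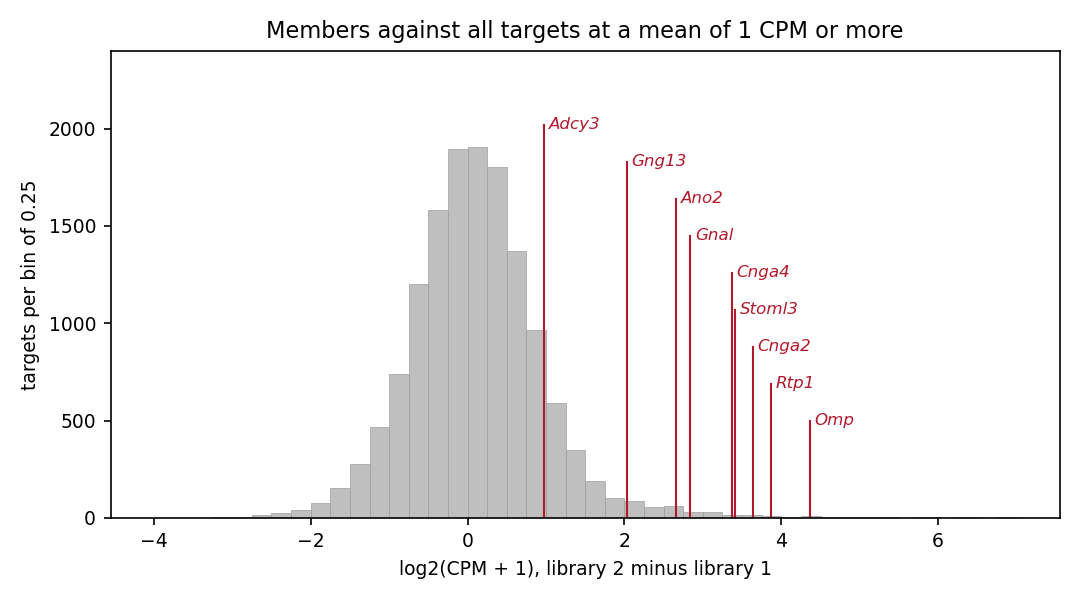
Number of targets (grey bars, bins of 0.25) by the difference in log2(CPM + 1), library 2 minus library 1, for all 14097 targets at a mean of 1 CPM or more, with values beyond the axis placed in the end bins. Red lines mark the 9 members at that mean, from Adcy3 at 0.98 to Omp at 4.36; line heights carry no value.

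The read counts of neighbouring members were separated most often in library 2. Amplicons differ in efficiency, so this is an order of reads and not of transcript levels. From the highest down, the order in library 2 was Omp, Adcy3, Gnal, Stoml3, Cnga2, Rtp1, Cnga4, Ano2, Gng13 and Cngb1. Only the 95% intervals of Stoml3 and Cnga2 overlapped among these neighbours. In library 1 the intervals separated Adcy3 from Omp and Gnal from Stoml3 and no other neighbours. There Rtp1, Cnga4, Ano2 and Gng13 rested on 1 or 2 reads each, at 0.177 to 0.353 CPM.

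The members were also set relative to Omp within each library. Since an amplicon is the same in each library, these values can be set side by side, though they do not give the proportion of transcripts. Cnga2 had 10.9% of the reads of Omp in library 2 (interval 9.83 to 12.0) and 11.1% in library 1 (interval 4.29 to 24.3). Stoml3 had 12.3% in library 2 and 17.5% in library 1, with overlapping intervals. Ano2 had 3.04% in library 2 and 3.17% in library 1, and Gng13 had 1.53% and 1.59% in the same order.

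For Rtp1 and Cnga4 the intervals overlapped too, with Rtp1 at 7.59% in library 2 and 3.17% in library 1, and Cnga4 at 5.24% and 3.17% in the same order. With 1 to 11 reads of these genes in library 1, a difference of up to several fold was not detectable at this depth. Gnal and Adcy3 stood apart. Gnal had 28.5% of the reads of Omp in library 2 (interval 26.6 to 30.5) and 81.0% in library 1 (interval 54.8 to 119). Adcy3 had 58.4% in library 2 (interval 55.5 to 61.5) and 656% in library 1 (interval 502 to 869).

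**Figure D3:**
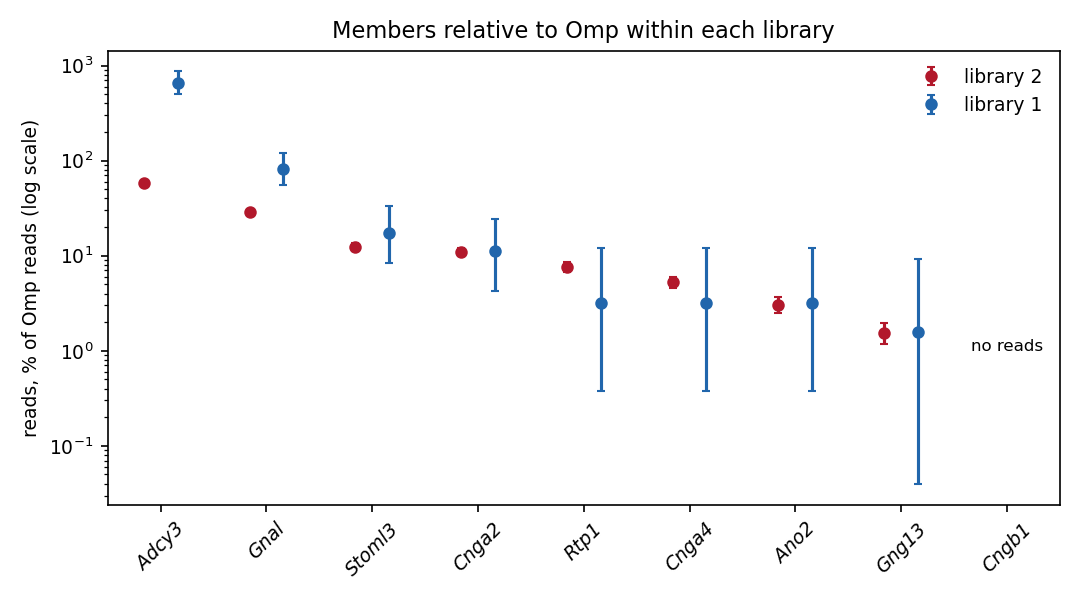
Reads of each other member as a percentage of Omp reads in the same library (log scale), library 2 in red and library 1 in blue, with exact 95% intervals. Intervals overlap for Stoml3, Cnga2, Rtp1, Cnga4, Ano2 and Gng13 and not for Adcy3 and Gnal; Cngb1 had no reads.

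The odorant receptors, the ligand-binding end of the same pathway, did not share the difference of Omp in their summed reads. Their 1057 targets summed to 370 CPM in library 2 (5849 reads) and 343 CPM in library 1 (1945 reads), a ratio of 1.08 (interval 1.02 to 1.14). This is 0.350 CPM per target in library 2, against 0.325 CPM in library 1. The median target was at 0.253 CPM in library 2 and at 0.177 CPM in library 1, the worth of 1 read there. Whether a background in both libraries hides a rise in the sum was not tested. The highest was Olfr225 at 2.40 CPM in library 2, against 0.530 CPM in library 1, and the highest in library 1 was Olfr267 at 2.29 CPM. In library 2, 72 receptor targets reached 1 CPM, and in library 1, 75 did. Reaching 1 CPM takes fewer reads in library 1, so these counts are not alike. The share over all targets is not given here, and nothing is read from the counts.

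Receptors of the vomeronasal organ, another sensory organ of the nose, give a comparison. Type 1 receptors, which like odorant receptors have their coding sequence in 1 exon, had a mean of 0.216 CPM over 151 targets in library 2, against 0.302 CPM in library 1. Type 2 receptors, whose coding sequence is split over several exons, had a mean of 0.0249 CPM over 84 targets in library 2, against 0.0273 CPM in library 1. The 12 trace amine receptors had a mean of 0.559 CPM in library 2, against 0.338 CPM in library 1. The part of genomic DNA in any of these reads, those of Omp included, was not tested. The 4 members with 1 or 2 reads in library 1 were near the mean level of an odorant receptor target there.

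**Figure D4:**
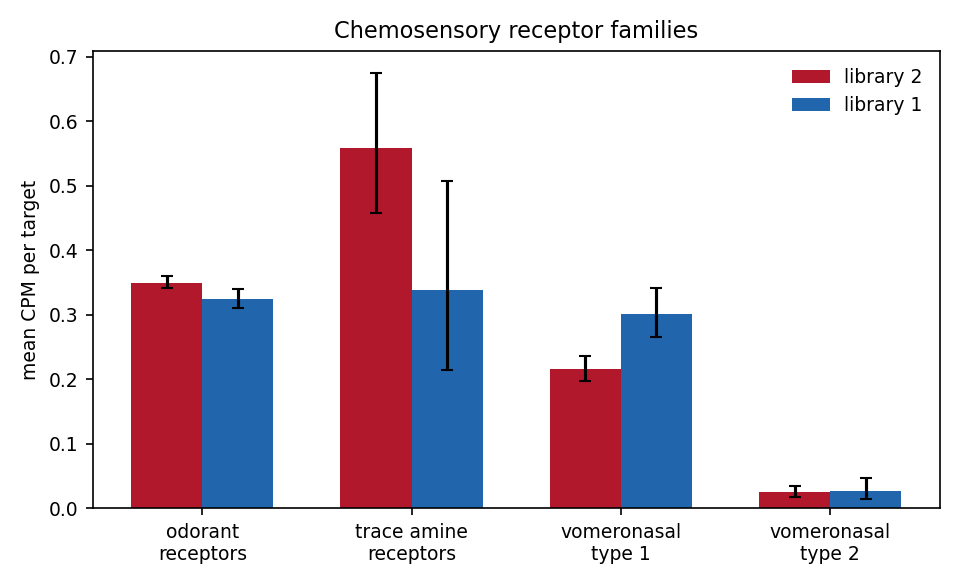
Mean CPM per target of 4 chemosensory receptor families in library 2 (red) and library 1 (blue), with exact 95% Poisson intervals of the summed reads. Odorant receptors are at 0.350 and 0.325 CPM per target, type 1 vomeronasal receptors at 0.216 and 0.302 CPM.

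Of 15 further genes of olfactory transduction, 14 were measured and 13 reached a mean of 1 CPM. Of these 13, 3 had a ratio above 2 (14.2% of all targets), none a ratio below 0.5 (9.80% of all targets) and 10 lay between. The 3 were Gfy, Rtp2 and Slc12a2, of which Rtp2 was under 1 CPM in library 1. Gfy stood at 245 CPM in library 2 and 5.65 CPM in library 1, a ratio of 43.3 (interval 30.6 to 63.4). Slc12a2, which loads chloride into the neurons and is used by many secretory cells, stood at 139 CPM in library 2 and 53.0 CPM in library 1, a ratio of 2.63. Pde1c, a cyclic AMP phosphodiesterase of olfactory cilia, had a ratio of 1.92 (interval 1.41 to 2.66), and Slc24a4, the calcium extruder of the cilia, 1.83 (interval 1.22 to 2.83).

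Other genes of mature olfactory neurons divided. Of 9 measured, all at a mean of 1 CPM or more, 6 had a ratio above 2 (14.2% of all targets) and 3 did not. Of the 6, 2 were under 1 CPM in library 1 and passed the mean through library 2, so they had to differ. Umodl1 stood at 36.2 CPM in library 2 and 1.24 CPM in library 1, a ratio of 29.3 (interval 14.1 to 73.2), and Acsm4 at 5.95 CPM in library 2 and 0.177 CPM in library 1. S100a5, a calcium-binding protein gene that sensory activity raises in these neurons, stood at 41.3 CPM in library 2 and 2.29 CPM in library 1, a ratio of 18.0 (interval 10.4 to 33.9). Those not above 2 were Nrp1, Ncam2 and Kirrel3. Nrp1, an axon guidance receptor of many cell types, had 44.3 CPM in library 2 and 49.3 CPM in library 1. Ncam2 had 4.30 CPM in library 2 and 5.30 CPM in library 1, a ratio of 0.812 (interval 0.521 to 1.29). Kirrel3 had 10.3 CPM in library 2 and 10.9 CPM in library 1, a ratio of 0.936 (interval 0.695 to 1.28). Among factors of neuron identity, 3 of 9 had a ratio above 2 (14.2% of all targets). Lhx2 stood at 39.0 CPM in library 2 and 5.65 CPM in library 1 (ratio 6.91, interval 4.84 to 10.2). Atf5 had a ratio of 4.87 (interval 3.41 to 7.16). Ebf1, shared with B cells and mesenchyme, had 66.1 CPM in library 2 and 46.1 CPM in library 1, a ratio of 1.43.

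Of 6 genes of immature neurons, 5 had a ratio above 2 (14.2% of all targets). Gng8, a gamma subunit gene of immature olfactory neurons, stood at 25.6 CPM in library 2 and 2.83 CPM in library 1, a ratio of 9.05 (interval 5.50 to 16.0), while Stmn2, shared with other neurons, had 2.76 (interval 2.47 to 3.09). Of 6 basal and progenitor genes measured, 4 had a ratio above 2 and 1 a ratio below 0.5 (14.2% and 9.80% of all targets). Of the 4, Neurog1 passed the mean through library 2 and had to differ. Insm1, a factor of neuronal progenitors, stood at 71.1 CPM in library 2 and 4.94 CPM in library 1, a ratio of 14.4 (interval 9.90 to 21.7), and the basal keratin gene Krt14 at 5.57 CPM in library 2 and 22.2 CPM in library 1.

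Marker lists of nasal supporting and gland cells and of respiratory cells were also higher in library 2, in summed CPM. The 2 vomeronasal genes measured were not. Their sum rested mostly on Gnai2, at 1011 CPM in library 2 and 1388 CPM in library 1. Gnao1, the other, was higher in library 2, so these 2 genes do not speak for vomeronasal cells. Of 10 genes of supporting cells and Bowman's glands measured, 8 reached a mean of 1 CPM. All 8 had a ratio above 2 (14.2% of all targets), though 3 of them passed the mean through library 2 and had to differ. The 10 summed to 1144 CPM in library 2, against 46.8 CPM in library 1. The median difference of the 8 was 4.67 on the log2(CPM + 1) scale. Cyp2g1, a cytochrome P450 of the olfactory mucosa, stood at 196 CPM in library 2 and 4.94 CPM in library 1, a ratio of 39.7 (interval 27.4 to 59.8). Cbr2 had 401 CPM in library 2 and 34.4 CPM in library 1, and Cyp2a5 230 CPM in library 2 and 1.59 CPM in library 1. Obp2a, an odorant-binding protein gene, had 1362 reads in library 2 and 0 in library 1 and was at least 163-fold higher in library 2 against a limit of 3 reads in library 1. In library 1, Obp1a and Cyp2a4 were also at 0.

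Of 5 genes of respiratory ciliated and secretory cells, 4 reached a mean of 1 CPM. All 4 had a ratio above 2 (14.2% of all targets), of which 2 passed through library 2 and had to differ. The list stood at 103 CPM summed in library 2 and 7.95 CPM in library 1. Dnah5, a dynein of motile cilia, had a ratio of 38.5 (interval 16.4 to 119), and Scgb1a1, a secretory marker, had 0 reads in both libraries. The part of these cells in the difference of the members was not tested.

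Markers of brain neurons and of other chemosensory cells were also counted. Of 10 brain neuron genes with a mean of at least 1 CPM, 3 had a ratio above 2 (14.2% of all targets). Nefl, which sensory and motor axons also carry, led at 4.01 (interval 3.43 to 4.73). Slc17a7, a glutamate transporter of cortical neurons, stood at 21.9 CPM in library 2 and 21.4 CPM in library 1. Of 8 genes of necklace neurons and tuft-like chemosensory cells, 5 reached a mean of 1 CPM and none of these had a ratio above 2. Trpm5, a channel gene of such cells, stood at 4.37 CPM in library 2, against 6.36 CPM in library 1. Of 3 vomeronasal genes, 2 were measured and neither had a ratio above 2. Gnao1 had a ratio of 1.58 (interval 1.46 to 1.71) and Gnai2 a ratio of 0.729 (interval 0.709 to 0.749). The suture and bone list was itself not level. Of its 8 genes, 4 had a ratio above 2 (14.2% of all targets), with the highest ratio, 4.15, for Six2.

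**Figure D5:**
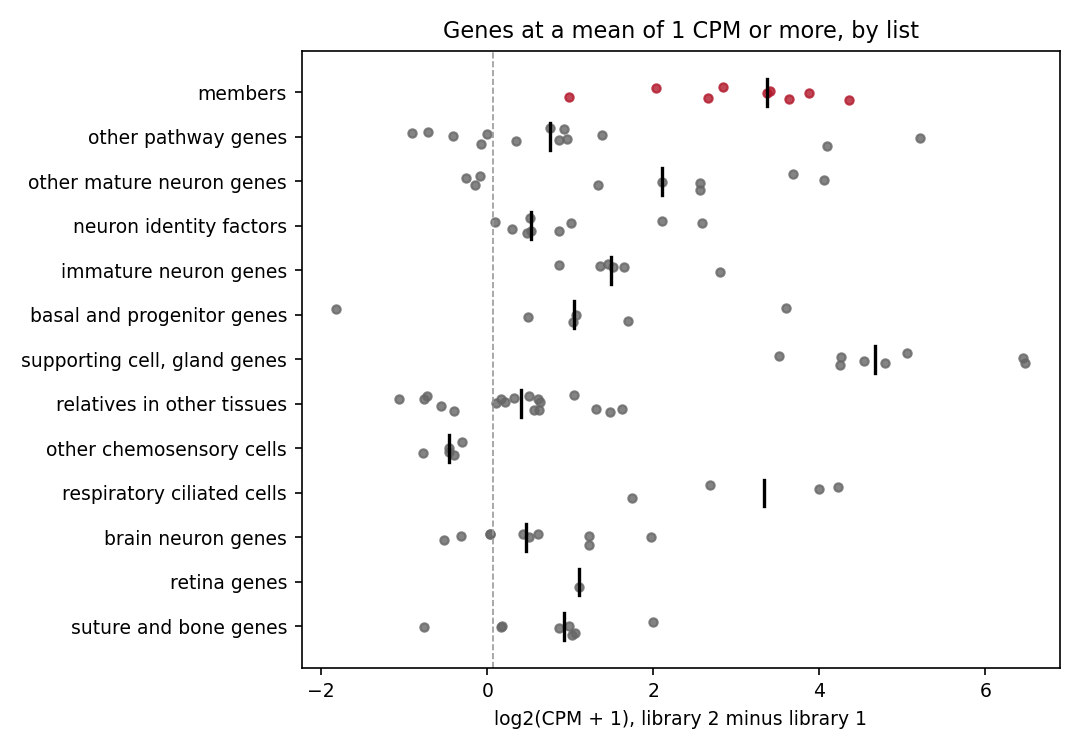
Difference in log2(CPM + 1), library 2 minus library 1, for each gene whose mean reached 1 CPM, by list, with the members in red, list medians as black bars and the median of all targets (0.07) as a dashed line. The vomeronasal list is not drawn. The members (median 3.37), the supporting cell and gland genes (4.67) and the respiratory ciliated genes (3.34) lie farthest to the right; vertical scatter within a row carries no value.

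The genes closest to the members in pattern were sought among 9192 targets at a mean of 10 CPM or more, by the distance of their difference from the members' median of 3.37. Over 2 libraries a pattern is 1 ratio, so this likeness is weak. The nearest were Fezf1 at a difference of 3.35, Slc25a35 at 3.32, Nhlh1 at 3.46, Esrp1 at 3.46 and Wfdc2 at 3.26. Fezf1, a zinc finger factor gene, stood at 20.1 CPM in library 2 and 1.06 CPM in library 1. Nhlh1, a helix-loop-helix factor gene, stood at 37.1 CPM in library 2, against 2.47 CPM in library 1.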

How the data were processed

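Total RNA of 2 cranial suture samples was made into Ion AmpliSeq mouse transcriptome libraries, per the labels' protocols. CPM values for 23930 targets, scaled to each library's total, were deposited by the authors. The submitters' processing notes name the build mm10, while aligner and counter were not given in the sources used here. With 1 read worth 0.0633 CPM in library 2 and 0.177 CPM in library 1, 100% of the values came out as whole reads (tolerance 0.01 of a read), and those reads were used. A date replaced 27 symbols, which were restored from target names.

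Levels, Poisson intervals and ratios with Clopper-Pearson intervals (95%) were computed with scipy 1.17.1 in Python 3.11.15 and tested on simulated reads. Without molecular identifiers, intervals and the limit for 0 reads (3 reads) cover counting error only. With 1 group, no test between conditions could be made. The exact binomial test over all targets, with Benjamini-Hochberg adjustment, compares the 2 libraries' reads and was run as an alternative. Gene positions come from GENCODE M21.

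The members and the 13 lists (125 genes, 7 not analysed here) were chosen with earlier results of these data known. Named genes were all members, the 3 highest and the 2 of highest ratio per list, the 5 most read per receptor family, the 5 nearest in pattern and the 10 of highest ratio. Others were chosen after their values were seen. A gene that the rule takes is not reported here by name.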

Additional observations from a re-analysis of the deposited data

How the results depend on the processing

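The ratio above 2 was counted for 8 members with median-of-ratios size factors, with upper-quartile scaling and with no filter, and for 9 with library 2 thinned to the reads of library 1, where Adcy3 passed. At a mean of 10 CPM or more it was counted for 4, because fewer members were kept. The median difference of the members was 3.34 to 3.66 under these settings and a pseudocount of 0.5 CPM, and 2.15 with a pseudocount of 5 CPM, which by construction shrinks the differences of low genes. The number of members at 1 CPM ran from 5 to 9 when each library was left out in turn; a left-out library leaves no ratio. The ratio of summed type 2 vomeronasal receptors was 0.910 (interval 0.466 to 1.88) and became 2.33 without their 5 most read targets. With 33 reads in library 2 and 13 in library 1 in all, both ratios rest on few reads. Of the 14097 targets at a mean of 1 CPM or more, 3386 passed a ratio of 2 in either direction, and the exact binomial test with Benjamini-Hochberg adjustment, run without that filter, called 8863 of 23930. The 2 scalings moved the median of all targets by -0.03 and -0.04 on the log2 scale. Counts of context genes were repeated with median-of-ratios size factors, an alternative chosen after seeing the data, and the count of none of the 13 lists moved by over 1.5 times. Members with 1 or 2 reads in library 1 are limited by its depth. No paired analysis was possible because the 2 libraries form 1 group.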

Other observations

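Among targets whose mean reached 10 CPM, the 10 of highest ratio of library 2 over library 1 were Lcn11, Bpifb5, BC051076, Obp2a, BB114814, Scgb2b27, Fmo6, Slc22a20, Agr2 and Bpifb6. The first 9 had 0 reads in library 1. Lcn11, a lipocalin gene, had 1001 CPM in library 2 (15816 reads) and was at least 1889-fold higher there against a limit of 3 reads in library 1. Bpifb5, of a family of secreted mucosal proteins, had 346 CPM in library 2, and the lower end of its interval was 530. Bpifb6 had 276 CPM in library 2 and 0.177 CPM in library 1 (1 read). All 10 lie above Omp, at 22.2, because the highest ratios were picked.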
